A study of Mus musculus with 49 samples.

Results

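The immunity-related GTPase (IRG) genes described here were the 7 genes of the count table listed under the symbols Irgm1, Irgm2, Igtp, Iigp1, Tgtp1, Tgtp2 and Ifi47, out of 45252 genes in all. They were picked by symbol. All 7 passed the filter on low counts, which left 18220 genes to test.

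The series holds bulk RNA-seq of neocortex from 49 mice of a TDP-43 model of amyotrophic lateral sclerosis and frontotemporal dementia, in 4 groups. The ctrl-PBS group (17 mice) was monogenic and could not express the human TDP-43 transgene, whereas TDP-PBS (10 mice), TDP-10+12 (10 mice) and TDP-15 (12 mice) were bigenic rNLS8 mice that express cytoplasmic human TDP-43 (hTDP-43ΔNLS) from a tetO promoter under a NEFH-tTA driver, which limits the transgene to neurons. TDP-10+12 mice were immunized with TDP-43 peptides 10 and 12 and TDP-15 mice with the phosphorylated peptide 15, at 40 µg coupled to ovalbumin with CpG oligonucleotide and Alhydrogel, and the other groups received PBS in place of the peptides (whether with the adjuvants is not stated in the sources used here). All groups shared the mixed C57BL/6J x C3H/HeJ background, the injection schedule (5 before and 1 after induction, from 8 weeks of age), the withdrawal of doxycycline at 25.5 weeks and the tissue collection at 28.5 weeks, 3 weeks after induction. No group of unimmunized, non-transgenic mice and no peptide-immunized monogenic mice were analysed here. Each mouse was 1 library, and 25 were female and 24 male.

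IRG proteins are interferon-inducible GTPases of mouse cell-autonomous immunity. Effector IRG proteins assemble on the membranes of vacuoles that hold intracellular parasites or bacteria and break them open, whereas regulatory IRG proteins sit on the cell's own membranes and keep the effectors inactive there. Interferon gamma is their best-known inducer, and type I interferons induce them too. In the uninfected brain they are best known as part of the interferon response of microglia and other cells.

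The regulatory and effector classes differ at 1 codon in the first nucleotide-binding motif of the GTPase domain, and this stretch is shown for the 6 members on chromosome 11 because it sorts them by role. The 24 coding bases (GENCODE vM21 transcripts, GRCm38, each within 1 coding exon) run 5′ to 3′ in the direction of the transcript, and the capitals mark the codon for methionine (regulators) or lysine (effectors).
Irgm1, chr11:48866761-48866784, minus strand: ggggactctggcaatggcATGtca
Irgm2, chr11:58219695-58219718, plus strand: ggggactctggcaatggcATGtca
Igtp, chr11:58206275-58206298, plus strand: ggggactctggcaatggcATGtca
Tgtp1, chr11:48987667-48987690, minus strand: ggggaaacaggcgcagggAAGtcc
Tgtp2, chr11:49059534-49059557, minus strand: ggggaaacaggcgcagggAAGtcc
Ifi47, chr11:49095648-49095671, plus strand: gggcagtctgggactggcAAGtcc
The stretch was the same in the 3 regulators, although their coding sequences as a whole were 65.1% to 70.5% identical in pairwise alignment. Tgtp1 and Tgtp2 shared it as well. Iigp1 also has the lysine codon and so belongs with the effectors.

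The 6 genes lie in 2 clusters of chromosome 11 (RefSeq, GRCm38.p6). Irgm1 (48865245 to 48871420), Tgtp1 (48985329 to 48992246), Tgtp2 (49057196 to 49064212) and Ifi47 (49076587 to 49096987) form one, and Igtp (58199556 to 58207592) and Irgm2 (58214977 to 58222783) the other. Iigp1 lies on another chromosome. The coding sequences of Tgtp1 and Tgtp2 differed at 4 of 1245 bases (99.7% identity), so their reads can be assigned to either copy, and the 2 are given below both singly and summed. Tgtp1 also overlaps the gene Gm42074, and Ifi47 overlaps Gm12188, and no strand setting of the counting was given in the sources used here.

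The stretch upstream of the transcription start is shown for the 5 members of chromosome 11 whose window held a match to an interferon-response motif. RefSeq windows of 250 bases before to 50 after the start were searched on both strands for GAAANNGAAA, the core of the interferon-stimulated response element bound by IRF proteins, and for TTCNNNGAA, the gamma-activated site found at genes induced by interferon gamma. The sequences below are in the direction of the gene, and capitals mark the matches.
Irgm1, chr11:48871429-48871468, minus strand: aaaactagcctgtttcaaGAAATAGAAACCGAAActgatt
Irgm2, chr11:58214895-58214928, plus strand: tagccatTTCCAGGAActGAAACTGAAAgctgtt
Igtp, chr11:58199504-58199537, plus strand: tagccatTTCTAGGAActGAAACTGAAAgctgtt
Tgtp1, chr11:48992308-48992341, minus strand: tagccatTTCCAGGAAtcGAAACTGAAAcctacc
Tgtp2, chr11:49064267-49064300, minus strand: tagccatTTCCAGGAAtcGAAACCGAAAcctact
Both motifs stood side by side in Irgm2, Igtp, Tgtp1 and Tgtp2, with the same spacing. Irgm1 held 2 overlapping copies of the first motif and none of the second. Neither motif was found in the window of Ifi47. Among all 32851 windows, 3.44% held the first motif, 8.30% the second and 0.454% both. A match describes the letters in the window and is not evidence of binding.

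Total counts ranged from 17775738 to 21033608 per mouse, so that 3 counts corresponded to between 0.143 and 0.169 CPM (counts scaled to library size). The sexes in the labels were as the X- and Y-linked transcripts gave them in all mice. Mouse Tardbp had a median of 147 CPM in ctrl-PBS and 121 CPM in the 32 rNLS8 mice, and the human transgene was not analysed here. 8 libraries held at least 1 CPM of Omp, a gene of olfactory sensory neurons whose axons end in the olfactory bulb (3 ctrl-PBS, 2 TDP-10+12 and 3 TDP-15 mice). Levels below are CPM scaled by TMM factors, and log2 fold changes are from edgeR's quasi-likelihood fit of all 49 mice, with SE, and with p-values adjusted by the Benjamini-Hochberg method over all genes tested.

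The first comparison asks how the IRG genes differed between rNLS8 mice and monogenic controls that both received PBS. In TDP-PBS mice all 3 regulators and 2 of the 4 effectors were higher. The background was high, since 21.9% of all genes tested were called higher in this comparison, so the 5 of 7 members called are read by their size rather than by their number. The members' median log2 fold change was 1.12, against 0.00 for all genes tested.

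Irgm1, the regulator found on lysosomes, Golgi and mitochondria, was the most abundant member in CPM. In ctrl-PBS mice its lowest, median and highest levels were 12.0, 16.3 and 32.9 CPM, and in TDP-PBS mice 26.6, 52.5 and 75.7 CPM. 9 of the 10 TDP-PBS mice were above every control, and the remaining mouse, TDP-PBS replicate 9, lay under the highest control. The log2 fold change was 1.54 ± 0.17 (SE, adjusted p = 1.10e-10 by edgeR).

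Igtp, the regulator also called Irgm3 that sits on the endoplasmic reticulum and lipid droplets, had 2.45, 5.60 and 17.0 CPM in ctrl-PBS mice and 10.6, 16.04 and 31.0 CPM in TDP-PBS mice. Every TDP-PBS mouse was above the control median, and 4 of 10 were above the highest control. Irgm2, the Golgi-associated regulator, had 3.85, 7.32 and 25.4 CPM in controls and 12.3, 18.3 and 31.6 CPM in TDP-PBS mice, where 1 mouse was above every control. The log2 fold changes were 1.53 ± 0.24 for Igtp (adjusted p = 4.50e-07 by edgeR) and 1.12 ± 0.23 for Irgm2 (adjusted p = 7.42e-05).

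Among the effectors, Iigp1, the best-studied effector, also called Irga6, had 0.700, 1.61 and 6.03 CPM in ctrl-PBS mice and 2.25, 6.12 and 9.10 CPM in TDP-PBS mice. It rose by 1.66 ± 0.26 (adjusted p = 6.68e-07 by edgeR), and 5 of 10 TDP-PBS mice were above every control. Ifi47, also called Irgd, had 0.700, 1.87 and 7.95 CPM in controls and 1.55, 4.18 and 7.96 CPM in TDP-PBS mice. The ranges of Ifi47 overlapped almost wholly, and its log2 fold change was 0.86 ± 0.28 (adjusted p = 0.0112).

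The Tgtp pair, also called Irgb6, did not pass the test. Tgtp1 had 0.650, 1.67 and 9.77 CPM in ctrl-PBS mice and 1.45, 3.84 and 6.87 CPM in TDP-PBS mice. Tgtp2 had 2.35, 4.15 and 22.6 CPM in controls and 3.85, 8.43 and 15.2 CPM in TDP-PBS mice. For both copies the highest control was above every TDP-PBS mouse, while the medians of the TDP-PBS mice were higher. The log2 fold change was 0.62 for Tgtp1, with a 95% interval from 0.03 to 1.22 (adjusted p = 0.0850 by edgeR), and 0.53 for Tgtp2, with an interval from -0.05 to 1.11 (adjusted p = 0.137). In bulk tissue, fewer cells of a type and less RNA per cell cannot be told apart, here and below.

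**Figure D1:**
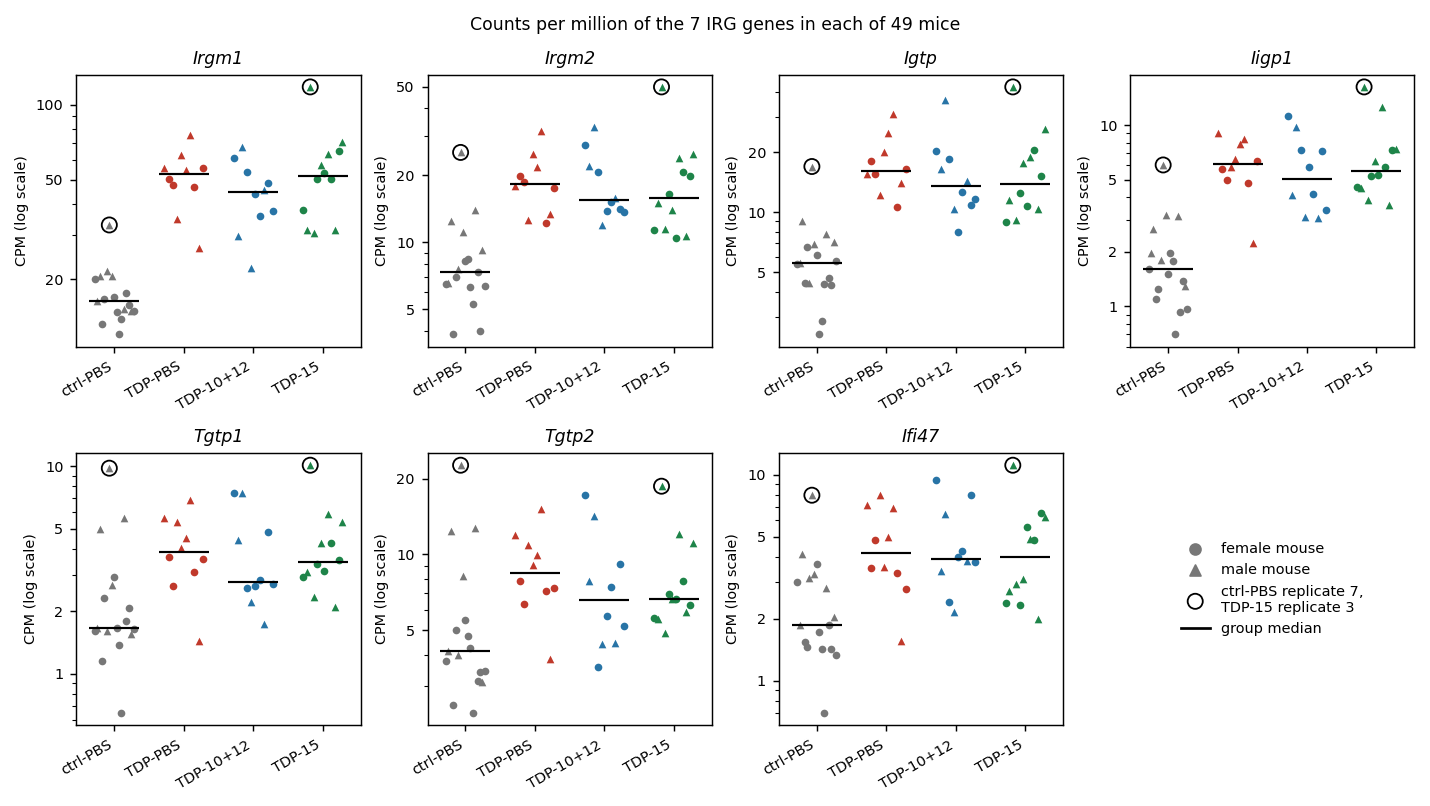
CPM of each of the 7 IRG genes (log axis) in each of the 49 mice by group, with circles for female and triangles for male mice, a bar at the group median, and rings around ctrl-PBS replicate 7 and TDP-15 replicate 3. The ringed control lies above all other controls for each gene, and the ringed TDP-15 mouse is the highest rNLS8 mouse for each gene.

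The comparisons of the immunized groups with ctrl-PBS used the same 17 control mice, so the 3 sets of fold changes are not independent and are given side by side. In TDP-10+12 mice the same number of members was higher, 5 of 7, where 20.8% of all genes tested were higher. In TDP-15 mice 6 of 7 were higher, where 23.6% of all genes tested were. The members' median log2 fold change was 1.09 in TDP-10+12 and 1.11 in TDP-15 mice, against 0.00 for all genes in both.

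Irgm1 had 22.2, 44.6 and 67.3 CPM in TDP-10+12 mice (lowest, median, highest) and 30.4, 51.8 and 118 CPM in TDP-15 mice. Its log2 fold changes against ctrl-PBS were 1.35 ± 0.17 (adjusted p = 5.45e-09 by edgeR) and 1.65 ± 0.16 (adjusted p = 3.63e-12). Over the 3 rNLS8 groups 26 of 32 mice were above every control. A full separation of the groups, which Irgm1 did not reach in any comparison, was seen in 2.31%, 2.23% and 2.45% of genes tested for TDP-PBS, TDP-10+12 and TDP-15.

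Igtp had 7.98, 13.6 and 36.4 CPM in TDP-10+12 mice and 8.98, 13.9 and 42.5 CPM in TDP-15 mice, with log2 fold changes of 1.37 ± 0.24 and 1.46 ± 0.23. Irgm2 had 12.0, 15.5 and 32.9 CPM and 10.5, 15.8 and 50.0 CPM, with log2 fold changes of 1.09 ± 0.23 and 1.11 ± 0.22. Iigp1 had 3.07, 5.04 and 11.2 CPM and 3.63, 5.59 and 16.2 CPM, with log2 fold changes of 1.59 ± 0.26 and 1.81 ± 0.25. These 3 genes had adjusted p-values between 2.89e-08 and 0.000109 by edgeR, and every rNLS8 mouse was above the control median.

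Ifi47 had 2.16, 3.90 and 9.40 CPM in TDP-10+12 mice and 1.99, 3.97 and 11.1 CPM in TDP-15 mice. Its log2 fold changes were 0.90 ± 0.28 (adjusted p = 0.00890 by edgeR) and 0.83 ± 0.27 (adjusted p = 0.00969). Tgtp1 had 1.73, 2.78 and 7.42 CPM and 2.09, 3.45 and 10.1 CPM. It was called at the threshold in TDP-15 mice (0.66 ± 0.28, adjusted p = 0.0498) and not in TDP-10+12 mice (0.54 ± 0.30, adjusted p = 0.142). Tgtp2 had 3.57, 6.57 and 17.3 CPM and 4.86, 6.64 and 18.7 CPM, and was called in neither (0.35 ± 0.29, adjusted p = 0.355, and 0.40 ± 0.28, adjusted p = 0.245). The counts of Tgtp1 were between 21.7% and 42.1% of the pair's sum over the 49 mice (median 32.1%). Summed to 1 gene, the pair was called in none of the 3 comparisons. The sum had 3.00, 5.61 and 32.4 CPM in ctrl-PBS mice and 5.30, 12.3 and 22.0 CPM in TDP-PBS mice (lowest, median, highest). Its medians were 9.31 CPM in TDP-10+12 and 10.1 CPM in TDP-15 mice. The call of Tgtp1 in TDP-15 mice was lost in 21 of the 49 fits that each left out 1 mouse, namely all ctrl-PBS mice except replicates 3, 7 and 13, TDP-PBS replicate 3 and TDP-15 replicates 3, 6, 8, 9, 11 and 12. The lowest value, without TDP-15 replicate 3, was 0.46 (adjusted p = 0.177 by edgeR), and DESeq2 with all mice gave an adjusted p of 0.0686. limma-voom called both copies in TDP-PBS mice, Tgtp1 at 0.83 (adjusted p = 0.0148) and Tgtp2 at 0.76 (adjusted p = 0.0169).

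**Figure D2:**
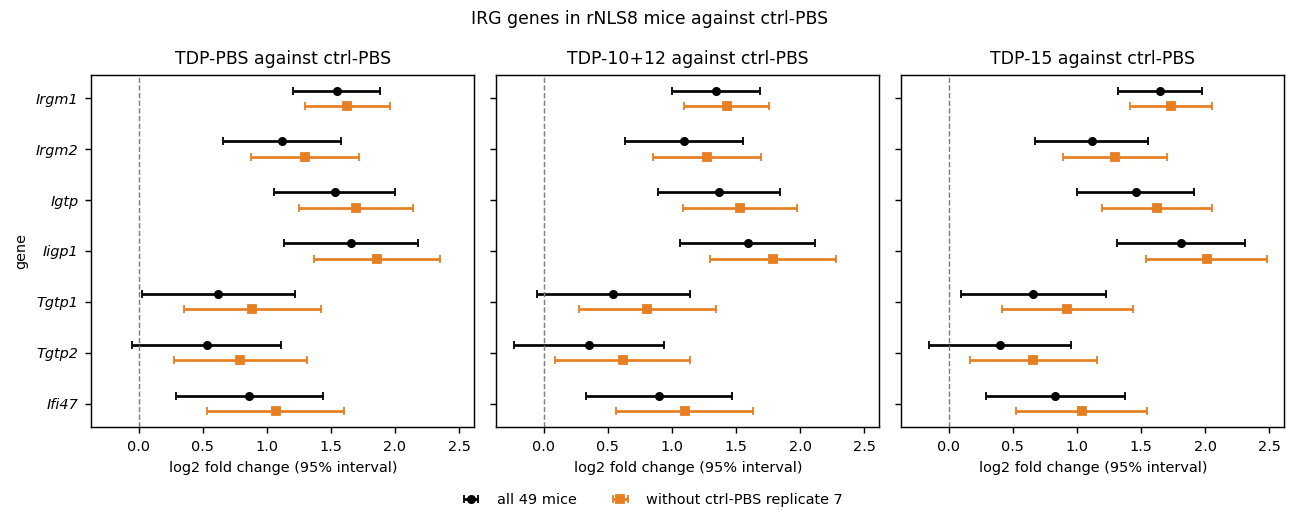
Log2 fold change of each IRG gene (points) with its 95% interval (bars) in TDP-PBS, TDP-10+12 and TDP-15 against ctrl-PBS, from the fit of all 49 mice (black circles) and from the fit without ctrl-PBS replicate 7 (orange squares). All estimates are above 0. All are larger without that mouse, which follows from its choice as the highest control. For TDP-PBS, Tgtp1 moved from 0.62 to 0.89 and Tgtp2 from 0.53 to 0.79.

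The calls on the Tgtp pair changed with 1 control mouse. The male ctrl-PBS replicate 7 had the highest level of all 7 members among controls, at 32.9 CPM of Irgm1, 25.4 of Irgm2, 17.0 of Igtp, 6.03 of Iigp1, 9.77 of Tgtp1, 22.6 of Tgtp2 and 7.95 of Ifi47. Its levels were 2.05 (Irgm1) to 5.88 (Tgtp1) times the median of the other 16 controls. Its Tgtp2 level was the highest of all 49 mice.

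This mouse was singled out after its values were seen, as the highest control for all 7 members. Larger fold changes, more calls and a wider separation without it follow from that choice and are not added support. Without this mouse, 7 of 7 members were called higher in TDP-PBS mice, 6 of 7 in TDP-10+12 mice and 7 of 7 in TDP-15 mice. In these comparisons 21.9%, 20.9% and 23.7% of all genes tested were called higher. Tgtp1 then had a log2 fold change of 0.89 ± 0.27 in TDP-PBS mice (adjusted p = 0.00556 by edgeR), 0.81 ± 0.27 in TDP-10+12 mice (adjusted p = 0.0125) and 0.92 ± 0.25 in TDP-15 mice (adjusted p = 0.00225). Tgtp2 had 0.79 ± 0.26 (adjusted p = 0.0107), 0.61 ± 0.26 (adjusted p = 0.0542) and 0.66 ± 0.25 (adjusted p = 0.0253). In TDP-PBS mice Tgtp1 also passed without ctrl-PBS replicate 3 (0.71, adjusted p = 0.0483), ctrl-PBS replicate 13 (0.73, adjusted p = 0.0419) or TDP-PBS replicate 9 (0.72, adjusted p = 0.0469). Without ctrl-PBS replicate 7, Irgm1 separated all 32 rNLS8 mice from the other 16 controls, whose highest level was 21.5 CPM. For each rNLS8 group alone, 2.44%, 2.34% and 2.6% of genes tested were fully above these controls in the 3 comparisons. The share of genes that separated all 32 mice at once was not computed. Igtp was above the other controls in 30 of 32 rNLS8 mice, Iigp1 in 29, Irgm2 in 21, Ifi47 in 15, Tgtp1 in 5 and Tgtp2 in 4.

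In ctrl-PBS replicate 7 some interferon-inducible genes outside the family were above the other controls and others were not. Gbp2 and Gbp3, guanylate-binding proteins that act with IRG proteins at vacuoles, were at 10.6 and 8.36 CPM, above the other controls (highest 5.91 and 4.78 CPM). Isg15, Ifit1 and Cxcl10, genes induced by type I interferon and, for Cxcl10, by interferon gamma, were at 0.861, 4.25 and 0.101 CPM, within the range of the other controls. The highest rNLS8 mouse, the male TDP-15 replicate 3, was high in both kinds of gene, with 118 CPM of Irgm1, 42.5 of Igtp, 69.6 of Ifit1 and 28.1 of Cxcl10.

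Markers of other cells were examined in the control mouse. Its T cell marker Cd3e was at 0 and Cd8a at 6 counts (0.304 CPM, the highest of the 49 mice), and its summed level of 7 NK and cytotoxic cell genes was 0.203 CPM, within the control range of 0 to 0.682. Its microglial marker sum of 336 CPM was the highest of the controls, which began at 268 CPM. It held 16.9 CPM of Omp, the highest of all mice, and an olfactory bulb marker sum of 155 CPM. The control with the highest olfactory sum, ctrl-PBS replicate 14 at 203 CPM, had 17.6 CPM of Irgm1, 7.32 of Irgm2, 4.69 of Igtp, 0.928 of Iigp1, 1.80 of Tgtp1, 3.14 of Tgtp2 and 1.86 of Ifi47. Irgm1 and Tgtp1 were above the control medians in that mouse, and the other 5 were at or below them. The part of olfactory tissue in the levels of ctrl-PBS replicate 7 was not tested. The 8 libraries with at least 1 CPM of Omp, which include ctrl-PBS replicate 7, were left out in another fit, a choice made after seeing the data. In that fit 7, 6 and 6 members were called higher in the 3 comparisons, where 21.3%, 18.9% and 22% of all genes tested were.

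**Figure D3:**
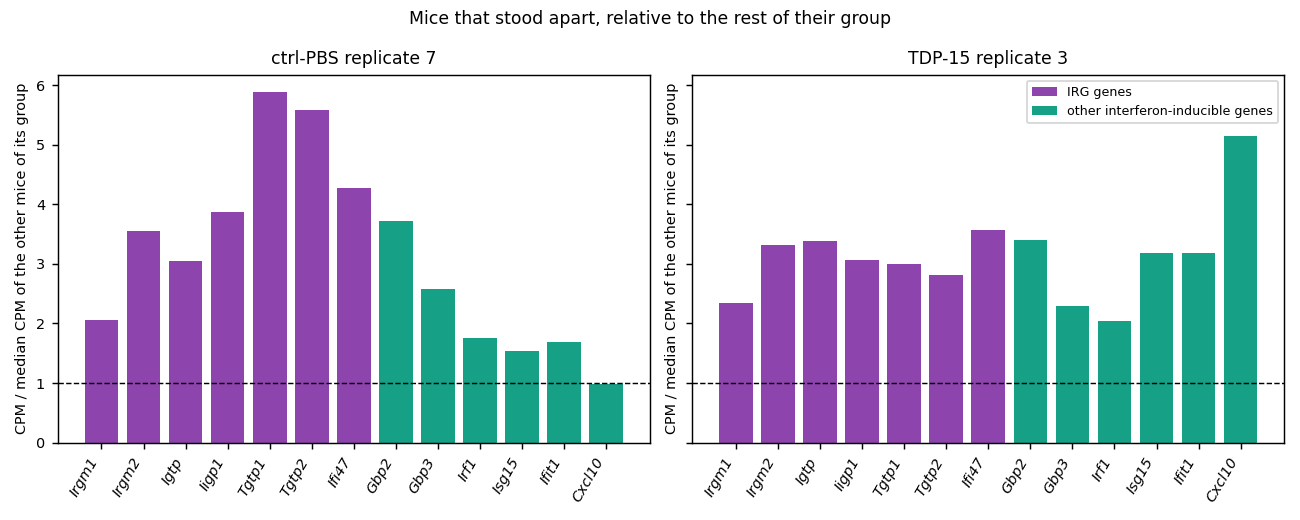
CPM of the IRG genes (purple) and of other interferon-inducible genes (green) in ctrl-PBS replicate 7 (left) and TDP-15 replicate 3 (right), each divided by the median of the other mice of its own group, on a linear axis with a dashed line at 1. In the control mouse Tgtp1 and Tgtp2 stand highest and Cxcl10 is at the line (2 counts), whereas in the TDP-15 mouse all genes are above the line.

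The next comparisons ask whether immunization changed IRG expression within rNLS8 mice. No member was called between any pair of rNLS8 groups, and neither was any of the 18220 genes by edgeR or limma-voom (0%). DESeq2 called 2 genes between TDP-10+12 and TDP-15, none of them a member, and 0 in the other comparisons. At an unadjusted p under 0.05 there were 953 genes for TDP-10+12 against TDP-PBS, 552 for TDP-15 against TDP-PBS and 1244 for TDP-10+12 against TDP-15, and no member was among them. The median log2 difference of the 7 members was -0.08, 0.00 and -0.10 in these comparisons.

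The largest difference was that of Irgm1 between TDP-10+12 and TDP-15 mice, at -0.30 with a 95% interval from -0.67 to 0.06 (p = 0.102, adjusted p = 0.813 by edgeR). Against TDP-PBS, Irgm1 differed by -0.20 in TDP-10+12 mice, with an interval from -0.58 to 0.18, and by 0.11 in TDP-15 mice, with an interval from -0.26 to 0.47. The intervals were wider for the effectors, where that of Tgtp1 ran from -0.74 to 0.59 in TDP-10+12 against TDP-PBS and from -0.60 to 0.67 in TDP-15 against TDP-PBS. Differences within these intervals were not excluded with these numbers of mice.

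**Figure D4:**
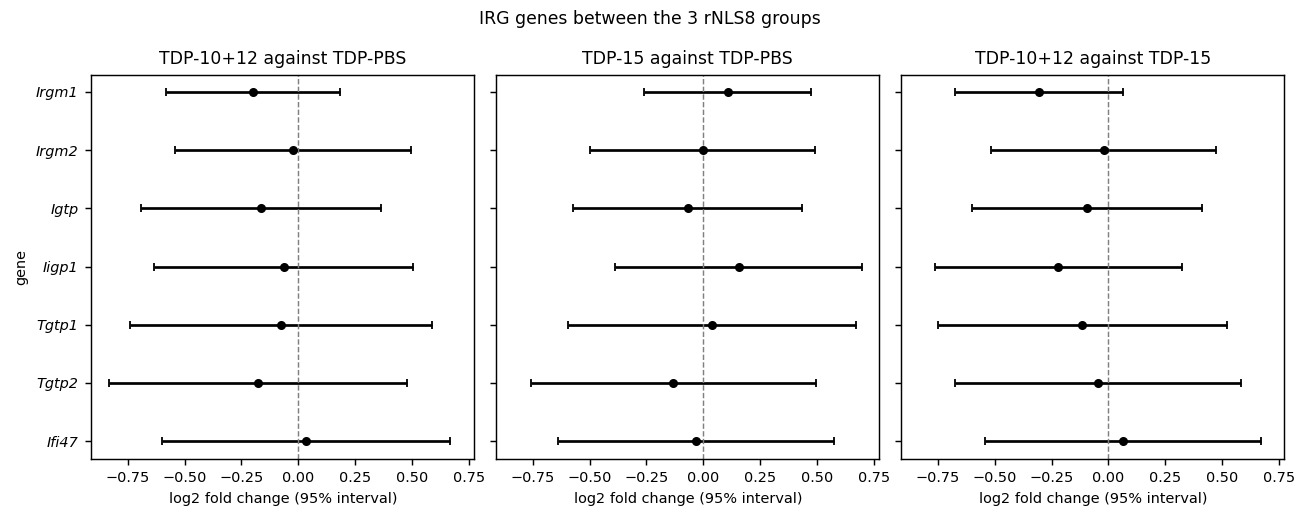
Log2 fold change of each IRG gene (points) with its 95% interval (bars) for the 3 comparisons among rNLS8 groups, with a dashed line at 0. Every interval spans 0, and that of Irgm1 between TDP-10+12 and TDP-15, from -0.67 to 0.06, has the lowest estimate and the lowest upper end.

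The highest control was male for every member. Male controls above every female control numbered 5 for Igtp, 4 for Irgm1, 4 for Iigp1, 3 for Tgtp1 and 2 for Ifi47. In ctrl-PBS mice Irgm2 ran from 3.85 to 8.43 CPM in the 10 females (median 6.41) and from 6.58 to 25.4 CPM in the 7 males (median 11.1), and 5 males were above every female. Tgtp2 ran from 2.35 to 5.51 CPM in females (median 3.60) and from 3.12 to 22.6 CPM in males (median 8.24), and 4 males were above every female. Besides replicate 7, the male controls with the highest Tgtp2 were replicates 13 and 3, at 12.8 and 12.4 CPM, and their Isg15 levels were 0.462 and 0.316 CPM, inside the control range.

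The estimated genotype effect was smaller in males for every member, but no difference between the sexes passed the test. In the fit of the 27 PBS mice, the log2 fold change of Iigp1 was 2.06 ± 0.29 in females and 1.22 ± 0.28 in males, a difference of -0.84 with an interval from -1.67 to 0.00 (p = 0.0493, adjusted p = 0.786 by edgeR). That of Tgtp2 was 0.93 ± 0.35 in females and 0.09 ± 0.33 in males, a difference of -0.84 (adjusted p = 0.799). The other members differed by between -0.34 (Irgm1) and -0.71 (Irgm2). No gene of 17363 was called (0%) by edgeR or limma-voom, and 1097 and 1184 had an unadjusted p under 0.05. With all 49 mice in the fit, 4 members and 661 of 18220 genes had an unadjusted p under 0.05, and none was called. Without ctrl-PBS replicate 7, which is male, the differences ran from -0.11 (Ifi47) to -0.55 (Iigp1).

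Levels can be compared between genes only per length, and CPM were divided by the length of all exons of each gene in GENCODE vM21. This length joins the exons of all annotated transcripts, from 2022 bases for Igtp to 5823 for Iigp1. It can exceed that of the transcript expressed, and the order of the genes depends on it. The levels of the Tgtp pair also depend on how shared reads were counted. On this scale Igtp and Irgm1 led in ctrl-PBS mice, at 3.06 ± 1.61 and 3.01 ± 0.83 CPM per kb (SD, n = 17), followed by Irgm2 at 2.39 ± 1.37, Tgtp2 at 2.11 ± 1.79, Ifi47 at 1.03 ± 0.68, Tgtp1 at 0.828 ± 0.701 and Iigp1 at 0.337 ± 0.219. No pair of neighbours in this order differed by more than 1 SD of the difference within mice. In TDP-PBS mice the order was the same, with Igtp at 8.83 ± 3.03 and Irgm1 at 8.78 ± 2.36 CPM per kb (SD, n = 10), and the step from Irgm1 to Irgm2 (5.17 ± 1.62) held in all 10 mice. Each regulator's mean was above each effector's in every group, ctrl-PBS included. Iigp1, the member with the largest fold change, was the lowest in TDP-PBS mice, at 1.06 ± 0.34 CPM per kb.

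The 7 members varied together among rNLS8 mice. After group means were removed from the log2 CPM of the 32 mice, Spearman's rho between pairs of members ran from 0.43 to 0.96 with a median of 0.70 over 21 pairs. These correlations are descriptions over libraries of similar depth, and have no test. The highest values were between the near-identical Tgtp1 and Tgtp2 (0.96) and between the neighbours Igtp and Irgm2 (0.93). Iigp1, on chromosome 18 (60373616 to 60392634), followed Irgm1 (0.88) and Tgtp1 (0.81) more closely than Igtp did (0.73 with Irgm1 and 0.65 with Tgtp1). Ifi47 had the lowest pairs, 0.43 with Igtp and 0.49 with Irgm2, but 0.77 with Tgtp2 and 0.75 with Tgtp1.

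**Figure D5:**
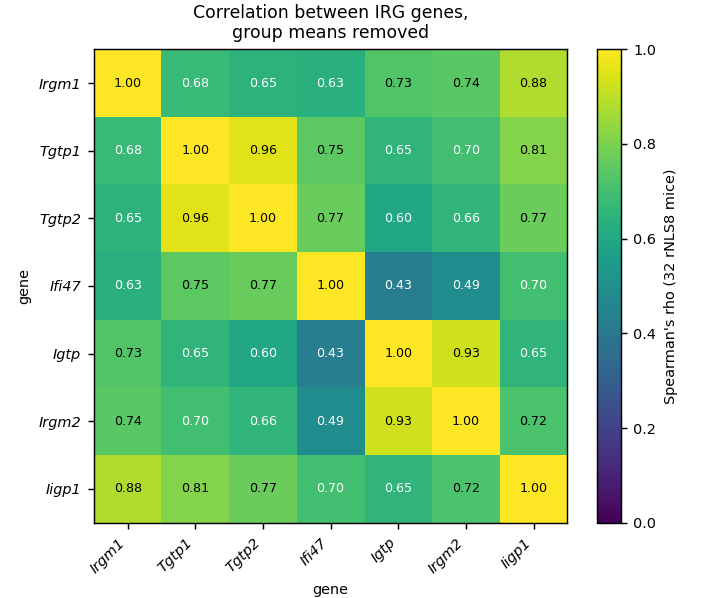
Spearman's rho between the IRG genes over the 32 rNLS8 mice after removing group means, with genes ordered by position on chromosome 11 and Iigp1 last, and colour from 0 to 1. The Tgtp1 and Tgtp2 pair (0.96) and the Igtp and Irgm2 pair (0.93) are the brightest, and the lowest value is 0.43, between Ifi47 and Igtp.

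Among the 5 genes outside the family whose levels followed the mean of the standardized members most closely over the same 32 mice were Cd274 (rho 0.88), which encodes the checkpoint ligand PD-L1, Ifit1 (0.84), the antiviral GTPase gene Mx1 (0.84) and Gbp6 (0.83). These 4 were also higher in rNLS8 mice, and Cd274 had log2 fold changes of 1.44 ± 0.21 in TDP-PBS, 1.22 ± 0.22 in TDP-10+12 and 1.67 ± 0.20 in TDP-15 mice. The astrocyte marker Gfap had a rho of 0.24 with the members and the microglial marker Aif1 one of 0.48.

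The other IRG genes and related large GTPases were 14 listed symbols, of which 13 were in the table and 10 passed the filter. 6 rose and 1 fell in TDP-PBS mice, 7 rose and 1 fell in TDP-10+12 mice, and 6 rose and 1 fell in TDP-15 mice. Of all genes tested, 21.9%, 20.8% and 23.6% rose and 21.6%, 20% and 23.2% fell in these comparisons. Gm4951 and F830016B08Rik, IRG genes related to Iigp1, had the largest changes, at log2 2.31 ± 0.33 and 2.25 ± 0.38 in TDP-PBS mice, from control medians of 0.306 and 0.155 CPM. These control medians are at or near the level of 3 counts.

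Gm5431 rose by log2 1.84 ± 0.27 in TDP-PBS mice, and 9930111J21Rik1 and 9930111J21Rik2 by 0.87 ± 0.17 and 0.87 ± 0.20. Gm12185 rose in TDP-PBS (1.25 ± 0.36) and TDP-10+12 mice (0.91 ± 0.37) and had 0.82 ± 0.35 in TDP-15 mice (adjusted p = 0.0515 by edgeR). Gm12250, which encodes the effector Irgb10, had 0.63 ± 0.32 in TDP-PBS mice (adjusted p = 0.112) and rose in TDP-10+12 (0.91 ± 0.31) and TDP-15 mice (1.11 ± 0.30). Irgq, a relative that is not interferon-inducible, was the gene that fell, by 0.17 on the log2 scale in TDP-PBS mice. The very large GTPase genes Gvin1 and Gm4070 had 0.38 ± 0.23 and 0.39 ± 0.22 and did not pass the test in any group.

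The interferon genes themselves were close to absent from these libraries. Ifng had at most 2 counts and a count in 13 of 49 mice, and Ifnb1 had no count in any mouse, which at this depth allows up to 3 counts, or 0.169 CPM, in the shallowest library. Of the interferon gamma signalling list 13 of 14 genes were tested, and 6 rose and 1 fell in TDP-PBS mice. Of all genes tested, 21.9% rose and 21.6% fell there. The list was led by Nlrc5, the activator of MHC class I genes (1.52 ± 0.28), Irf8 (0.92 ± 0.11) and the receptor chains Ifngr2 (0.83 ± 0.05) and Ifngr1 (0.55 ± 0.08). Irf1, an early target of interferon gamma, rose by 0.36 ± 0.13. The list's median log2 fold change was 0.39.

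The interferon lists hold unlike kinds of genes, many signalling genes for interferon gamma and many induced antiviral genes for type I interferon. Their medians therefore do not compare the types of interferon. The type I interferon list had a larger median change than the IRG genes, a difference that was not tested. Of its 16 genes tested, 13 rose in TDP-PBS mice, with a median log2 fold change of 2.70, where 21.9% of all genes tested rose. Its largest changes were Mx1 at 3.53 ± 0.32, Isg15 at 3.41 ± 0.35, Usp18, which restrains the receptor, at 3.40 ± 0.28, and Oasl2 at 3.32 ± 0.29. Of the 11 guanylate-binding proteins 8 rose, beside the same share of all genes tested. They had a median of 1.40, led by Gbp6 at 2.63 ± 0.26, Gbp10 at 2.55 ± 0.28 and Gbp3 at 2.08 ± 0.21. The list of autophagy conjugation genes and IRG partners held 17 genes that were tested. In TDP-PBS mice 5 of these rose and 4 fell, where 21.9% of all genes tested rose and 21.6% fell, and their median log2 fold change was 0.03. Its largest changes were Trim21 (1.38 ± 0.18), Traf6 (0.59 ± 0.05), Becn1 (-0.41 ± 0.04) and Atg10 (-0.30 ± 0.11). In none of the rNLS8 comparisons was a gene of these lists called.

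Some markers of cell types were called too. Counts of markers, here and in the next paragraph, are read beside the shares of all genes tested. In TDP-PBS, TDP-10+12 and TDP-15 mice 21.9%, 20.8% and 23.6% of these were higher and 21.6%, 20% and 23.2% lower. Of 9 microglial markers 6 rose in TDP-PBS mice, and their summed level ran from 268 to 336 CPM in ctrl-PBS mice, from 334 to 444 in TDP-PBS, from 278 to 419 in TDP-10+12 and from 278 to 519 in TDP-15 mice. The highest value was that of TDP-15 replicate 3, the mouse with the highest IRG levels among rNLS8 mice. The astrocyte marker sum ran from 670 to 894 CPM in controls and from 764 to 1226 CPM in TDP-PBS mice. Of its 6 markers 1 was higher and 1 lower, counts under the shares over all genes. Gfap had a median of 120 CPM in ctrl-PBS and 360 CPM in TDP-PBS mice. The medians of Gja1, Aqp4 and Aldh1l1 were lower in TDP-PBS than in ctrl-PBS mice. The neuron marker sum ran from 5919 to 7638 CPM in controls and from 4432 to 5532 CPM in TDP-PBS mice, with 3 of 6 markers lower. The part of cell numbers in the IRG changes was not tested.

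Of 7 T cell markers in the table only Cd4 passed the filter. Its median was 20.05 CPM in ctrl-PBS mice, and it fell by 1.19 on the log2 scale in TDP-PBS mice. The highest count in any mouse was 13 for Cd2 and 8 or fewer for the other 5. The summed level of the list ran from 1.95 to 35.7 CPM in controls and from 4.43 to 15.0 CPM in TDP-PBS mice. This sum was mostly Cd4 (mean 19.7 CPM in ctrl-PBS mice) and is not a level of T cells. Mean levels of Cd2 (0.115 CPM in ctrl-PBS and 0.324 CPM in TDP-PBS mice), Cd3d, Cd3g and Cd8a were higher in TDP-PBS mice. Those of Cd3e and Cd8b1 were lower, and none of these genes was tested. None of the 7 NK and cytotoxic cell markers passed the filter, their sum was at most 1.62 CPM, and Gzma was at 0 in all ctrl-PBS mice. Of 5 monocyte and border macrophage markers tested 3 rose, and the list's sum ran from 3.80 to 9.50 CPM in ctrl-PBS and from 4.76 to 17.4 CPM in TDP-PBS mice. Of 7 endothelial markers 1 rose in TDP-PBS mice, a count under the share over all genes, and none of 5 oligodendrocyte markers was called there. The choroid plexus sum had a median of 42.3 CPM and a highest value of 1279 CPM in TDP-PBS mice, and of its 4 markers none was called there, 3 rose in TDP-10+12 mice and 1 rose in TDP-15 mice. Of 6 olfactory bulb markers 4 fell in TDP-PBS mice and none was called in the other rNLS8 groups. The median sums were 14.9 CPM in ctrl-PBS and 14.7 CPM in TDP-PBS mice, and the highest were 203 and 24.4 CPM.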

How the data were processed

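RNA was taken from the neocortex of 49 mice, 1 library per mouse. The deposited table holds raw gene counts that the authors made from 100 bp paired-end BGI reads aligned to GRCm38.p6, and the submitters' processing notes list mm10, HISAT, HISAT2, Bowtie, Bowtie2 and RSEM. The counter, its strand setting and the treatment of reads that match several genes are not given in the sources used here, so reads of Tgtp1 and Tgtp2 may be split between the copies or dropped.

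Mice were grouped by the group label, and p-values measure the spread between animals. Genes were kept by filterByExpr by group, libraries were scaled by TMM, and 1 quasi-likelihood model of the 4 groups was fitted in edgeR 4.0.16 (R 4.3.3), with Benjamini-Hochberg adjustment over all genes and a threshold of 0.05. The genotype by sex interaction was fitted in the 27 PBS mice. The steps were tested on simulated counts. DESeq2 1.42.0 and limma-voom (limma 3.58.1) were alternatives, with other normalizations, other filters, sex as a covariate, only the 2 groups compared, the Tgtp pair summed, and each mouse left out in turn. The fits without the 8 mice with Omp and the interaction fits without each mouse were chosen after seeing the data. Intervals of fold changes include the spread between mice, and floors of 3 counts cover counting error only. Tables and figures were made with pandas 2.3.3, scipy 1.17.1, Biopython 1.88 and matplotlib 3.10.9.

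Promoter windows are from RefSeq (GRCm38.p6), where the symbols of the 6 members on chromosome 11 matched, and coding sequences and exon lengths from GENCODE vM21 (GRCm38). Protein sequences were not used here. Genes named were the 7 members, the other IRG genes detected, up to 4 genes with the largest called changes in TDP-PBS mice per list, Ifng, Ifnb1 and Irf1, the 5 genes most correlated with the members, and cell type markers. 1 gene that this rule names is not reported here. The values of single genes in ctrl-PBS replicate 7 and TDP-15 replicate 3 were chosen after their values were seen. The fit without ctrl-PBS replicate 7 was likewise singled out from the fits that each left out 1 mouse. The members and lists were chosen with earlier results of these data known.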

Additional observations from a re-analysis of the deposited data

Results flagged for a closer look

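The Igtp level of TDP-10+12 replicate 3, 36.4 CPM, stood apart from those of the other 9 mice of its group. Its gap to the next mouse was 0.570 of the group's range, above Dixon's critical value of 0.466 for 10 mice. It was the only such value in 14 checks, over 7 genes in the TDP-PBS and TDP-10+12 groups, where chance gives about 1 in 20. The groups of 12 and 17 mice were not checked in this way.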

How the results depend on the processing

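Irgm1, Irgm2, Igtp, Iigp1 and Ifi47 were called higher against ctrl-PBS in all 3 rNLS8 groups under every alternative, and the highest adjusted p was that of Ifi47 (0.0318, 0.0356 and 0.0491). Calls on Tgtp1 and Tgtp2 changed, as described above. With 1 mouse left out, 5 to 7 members were called in TDP-PBS, 5 to 6 in TDP-10+12 and 5 to 7 in TDP-15 mice. Among the 5 genes called throughout, the lowest log2 fold changes of these fits in TDP-15 mice were 0.63 for Ifi47 and 0.88 for Irgm2. Those of Tgtp1 and Tgtp2 went down to 0.46 and 0.22. Tgtp1 in TDP-15 mice also lost its call with upper-quartile scaling (adjusted p = 0.0514), no filter on low counts (0.0769) and only the groups compared (0.0643) by edgeR. Between rNLS8 groups and for the sex interaction, 0 members were called in every fit. The median rho between members was 0.71 with group means left in. Without division by length, the Igtp level in ctrl-PBS mice was 0.354 of that of Irgm1. No paired analysis was possible because each mouse is a separate animal and the replicate numbers follow accession order only. Depth was similar between mice, and the lowest members, near 1 CPM in controls, rest on the fewest counts.

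Differences between rNLS8 groups changed sign in 88 cases, each case being 1 gene in 1 comparison under 1 alternative. None of these was called in the main fit or in the alternative. For TDP-10+12 against TDP-PBS, sex as a covariate gave log2 0.0635 for Iigp1, 0.0847 for Irgm2, 0.0911 for Tgtp1 and 0.0068 for Tgtp2, and leaving out the 8 mice with Omp gave 0.0569 for Irgm2 and 0.0243 for Tgtp1. For TDP-15 against TDP-PBS, leaving out these mice gave 0.007 for Irgm2. For TDP-10+12 against TDP-15, sex as a covariate gave 0.011 for Igtp, 0.0931 for Irgm2, 0.0377 for Tgtp1 and 0.13 for Tgtp2, leaving out the mice with Omp gave 0.0868 for Igtp, 0.0498 for Irgm2 and 0.0353 for Tgtp2, and limma-voom gave 0.0608 for Irgm2. The cause was not tested. With 1 mouse left out, the ranges that crossed 0 for TDP-10+12 against TDP-PBS were -0.13 to 0.15 (Ifi47), -0.21 to 0.0113 (Iigp1), -0.15 to 0.0864 (Irgm2) and -0.23 to 0.0365 (Tgtp1). For TDP-15 against TDP-PBS they were -0.23 to 0.0846 (Ifi47), -0.28 to 0.0535 (Igtp), -0.0337 to 0.23 (Iigp1), -0.0513 to 0.185 (Irgm1), -0.23 to 0.11 (Irgm2) and -0.16 to 0.15 (Tgtp1). For TDP-10+12 against TDP-15 they were -0.10 to 0.27 (Ifi47), -0.31 to 0.11 (Igtp), -0.14 to 0.21 (Irgm2), -0.27 to 0.0809 (Tgtp1) and -0.25 to 0.13 (Tgtp2).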
